A study of Mus musculus with 18 samples.

Results

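The methionine cycle and its one-carbon branches were followed in mouse liver through 9 genes: Mat1a, Gnmt, Ahcy, Bhmt, Bhmt2, Dmgdh, Sardh, Cbs and Cth. The members were all probe sets whose platform gene symbol is one of these 9, which gave 12 of the 45101 probe sets on the array. Bhmt2, Sardh and Cbs have 2 probe sets each and the other 6 genes have 1. All 12 passed the filter on low signals, so all 9 genes were among the 11018 genes tested.

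Livers came from offspring of DUK mice, an outbred line, and were measured on 18 Affymetrix arrays in 6 groups of 3. Dams ate isoenergetic diets with 40% (high protein, HP) or 20% (control) protein by weight. The groups were HP pregnancy (40% in pregnancy, 20% in lactation), HP lactation (20% in pregnancy, 40% in lactation) and control (20% throughout), each at postnatal day 150 and day 21, and the labels give no sex. Each array held pooled RNA, and the descriptions disagree on the pools: they give 3 animals per pool, or 4 at day 21 and 3 to 4 at day 150, or 4 to 5 animals of different litters combined to 3 pools per group. Pools of one group may therefore share animals. The errors below describe the spread between pools, and the p-values are too small if animals were shared.

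The methionine cycle turns methionine into S-adenosylmethionine, the methyl donor of the cell, and recovers methionine from homocysteine. Liver carries the full set of enzymes, and it also breaks down surplus methionine, either by wasting methyl groups on glycine or by passing homocysteine to cysteine through transsulfuration. Choline enters through betaine, which donates a methyl group to homocysteine and leaves dimethylglycine, and mitochondria then strip dimethylglycine to sarcosine and sarcosine to glycine.

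The values are array signals on a linear scale whose trimmed mean was 500 on every array, and changes are differences of mean log2 signal. A gene was called when its limma p-value, adjusted by Benjamini-Hochberg over all genes tested, was under 0.05. The signals of hepatocyte transcripts such as Alb and Apoa1 ranked at or above the 98.1 percentile of probe sets. Of the bile duct markers Krt19 and Krt7 were under the filter while Sox9 and Epcam passed it, and of 5 red cell and 5 lymphocyte markers 1 each was tested (Alas2 and Ighm). Xist, which is transcribed in female cells, had signals of 11644.4 on HP lactation array 4 of day 150 and 7343.0 on control array 2 of day 21, and between 28.0 and 93.0 on the other arrays. The Gapdh 3'/5' control ratio, a measure of RNA integrity in the labelled sample, averaged 1.747 in HP pregnancy, 1.681 in HP lactation and 1.479 in control at day 150, against 0.904, 0.843 and 0.942 in the same diets at day 21.

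Bhmt, Bhmt2 and Dmgdh lie next to each other on chromosome 13 (RefSeq, GRCm38.p6): Bhmt at chr13:93616891-93637758 on the minus strand, Bhmt2 at chr13:93656097-93674302 on the minus strand and Dmgdh at chr13:93674436-93752823 on the plus strand. Bhmt2 and Dmgdh are transcribed away from each other, with 133 bases between their starts. The other members are on chromosome 14 (Mat1a), 17 (Gnmt and Cbs), 2 (Ahcy and Sardh) and 3 (Cth). The stretch shared by Bhmt2 and Dmgdh is shown because Dmgdh rose and a Bhmt2 probe set fell with age, the region before Bhmt because Bhmt is the third gene of the cluster, and a Sardh window because Sardh carried the diet call. The Sardh window lies inside the annotated span of the gene (chr2:27188393-27248332, minus strand), since the start in the promoter table is not the outermost one. Each runs from 250 bases before the start that the RefSeq promoter table gives to 50 after it, 5′ to 3′ along the gene. In Dmgdh the capitals mark the bases between the Bhmt2 and Dmgdh starts, and in Bhmt they mark matches to the motifs CCAAT and ATTGCAT on either strand.
Dmgdh, chr13:93674186-93674485, plus strand: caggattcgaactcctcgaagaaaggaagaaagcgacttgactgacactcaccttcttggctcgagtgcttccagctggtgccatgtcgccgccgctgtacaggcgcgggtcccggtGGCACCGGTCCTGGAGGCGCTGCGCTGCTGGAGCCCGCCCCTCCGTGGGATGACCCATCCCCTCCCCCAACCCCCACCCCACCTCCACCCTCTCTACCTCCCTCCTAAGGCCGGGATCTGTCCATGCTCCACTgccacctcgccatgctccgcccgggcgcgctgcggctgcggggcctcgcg
Bhmt, chr13:93637709-93638008, minus strand: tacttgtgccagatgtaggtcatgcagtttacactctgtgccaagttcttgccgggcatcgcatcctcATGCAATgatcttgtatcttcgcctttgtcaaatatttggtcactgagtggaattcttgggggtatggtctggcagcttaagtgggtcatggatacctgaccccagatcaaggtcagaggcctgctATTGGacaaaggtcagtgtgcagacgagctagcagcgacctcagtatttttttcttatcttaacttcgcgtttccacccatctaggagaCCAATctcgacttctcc
Sardh, chr2:27247254-27247553, minus strand: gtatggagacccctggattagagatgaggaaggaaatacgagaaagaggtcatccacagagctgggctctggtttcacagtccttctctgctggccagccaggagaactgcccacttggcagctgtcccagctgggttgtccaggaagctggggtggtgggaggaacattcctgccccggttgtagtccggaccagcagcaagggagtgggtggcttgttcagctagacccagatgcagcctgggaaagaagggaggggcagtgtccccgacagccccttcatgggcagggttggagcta

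The 2 windows of Bhmt2 and Dmgdh overlap by 233 bases, and their GC contents were 73.7% and 68.0%, against a median of 52.7% over all 32851 tabulated promoters. For 7 of the 9 members a promoter entry was given, and 6 motifs were searched there on both strands. The motif CCAAT was found in Gnmt, Ahcy, Bhmt and Cbs, and 37.4% of all promoters hold it. The motif CACGTG was found in Cbs, against 7.2% of all promoters, and the motif ATTGCAT in Bhmt, against 2.0%. The motifs TATAAA (13.6% of all promoters), TGACGT (7.5%) and TGTTCT (19.0%) were not found in these windows. The Bhmt2, Dmgdh and Sardh windows held none of the 6 motifs.

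**Figure D1:**
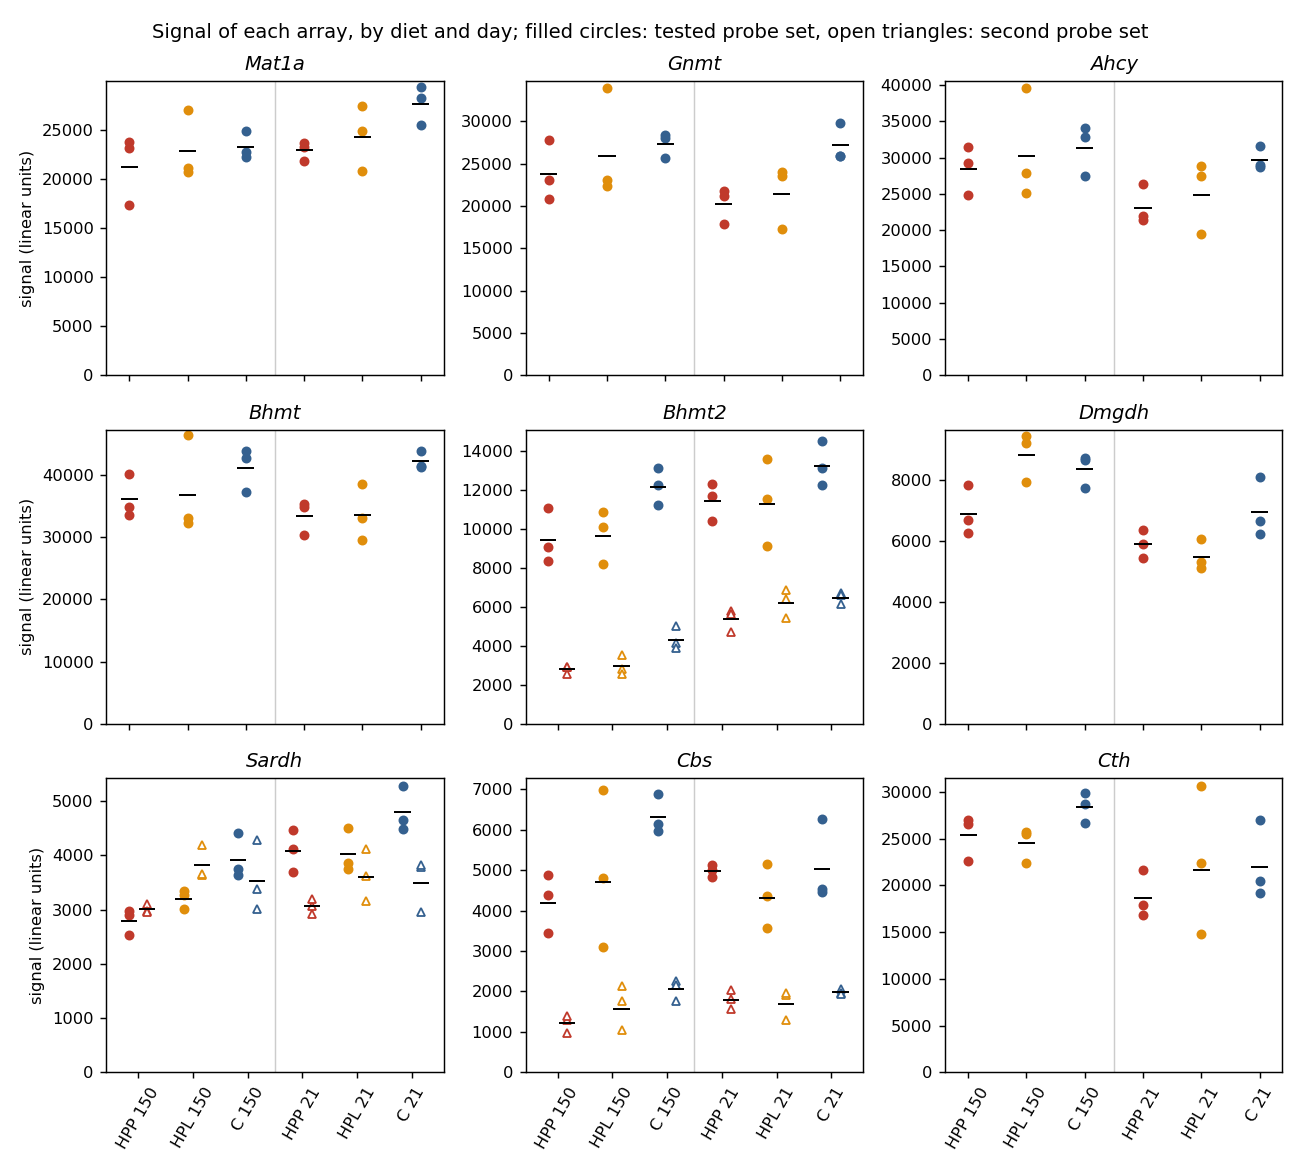
Signal (linear units, axis from 0) of the 9 genes on each of the 18 arrays. HPP is HP pregnancy, HPL is HP lactation and C is control, followed by the day. Filled circles are the probe set tested, open triangles the second probe set of Bhmt2, Sardh and Cbs, and black bars geometric means of 3 arrays. Sardh signals of HP pregnancy at day 150 (2535.2 to 2974.7) lie under those of control (3637.5 to 4417.8), and the second Bhmt2 set is lower at day 150 than at day 21 in every diet.

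Against control of the same day, 1 of the 9 genes was called: Sardh, which was lower after HP pregnancy at day 150. Small negative differences were common. At day 150 the log2 change was negative in all 9 genes for HP pregnancy (median -0.205) and in 8 of 9 for HP lactation (median -0.165), where 49.6% of all genes were negative in either case. The HP lactation values rest on single arrays: 5 of 9 were negative without array 5 (median -0.07) or array 6 (median -0.09), 6 without control array 2 (median -0.12), and 8 without array 4 (median -0.27). At day 21 it was negative in all 9 for HP pregnancy (median -0.24, 48.7% of all genes negative) and for HP lactation (median -0.25, 49.4% of all genes negative). The median over all 11018 genes was between 0.002 and 0.009 in these comparisons. Among genes as bright as most members, negative changes were far more common than over all genes, as given below. An unadjusted p under 0.05 was reached at day 150 by 4 members for HP pregnancy (20% of all genes) and 2 for HP lactation (7.72%), and at day 21 by 3 members for HP pregnancy (9.98%) and 4 for HP lactation (14.3%). Because these are bulk livers, fewer cells expressing a gene and less of its RNA per cell cannot be told apart.

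These negative differences came with a shift of the brightest genes. All 12 member probe sets ranked at or above the 90.5 percentile of signal, and 6 of the 9 were among the 551 genes with the highest mean signal. In those 551 genes the median log2 change from control at day 150 was -0.11 in HP pregnancy and -0.09 in HP lactation. At day 21 it was -0.18 in HP pregnancy and -0.255 in HP lactation. The share of the 551 genes with a negative change at day 150 was 75.3% in HP pregnancy and 78.9% in HP lactation. At day 21 this share was 88.7% in HP pregnancy and 94.6% in HP lactation. Dmgdh, Cbs and Sardh, with mean signals of 6965.0, 4876.2 and 3746.6, were under the lowest mean signal of the 551 genes (9724.6). The part of this shift in the members' negative changes was not tested. The 99th percentile of signal averaged 16994.4 ± 859.8 in HP pregnancy, 17100.9 ± 1887.1 in HP lactation and 18094.4 ± 962.7 in control arrays of day 150 (SD, n = 3 each). At day 21 it averaged 16338.6 ± 697.4 in HP pregnancy, 15882.1 ± 1358.4 in HP lactation and 18510.1 ± 1008.7 in control arrays (SD, n = 3 each). After quantile normalization, which gives all arrays the same distribution of signals, the number of negative members at day 150 was 9 in HP pregnancy (median -0.10) and 6 in HP lactation (median -0.07). At day 21 it was 8 in HP pregnancy (median -0.08) and 6 in HP lactation (median -0.06).

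**Figure D2:**
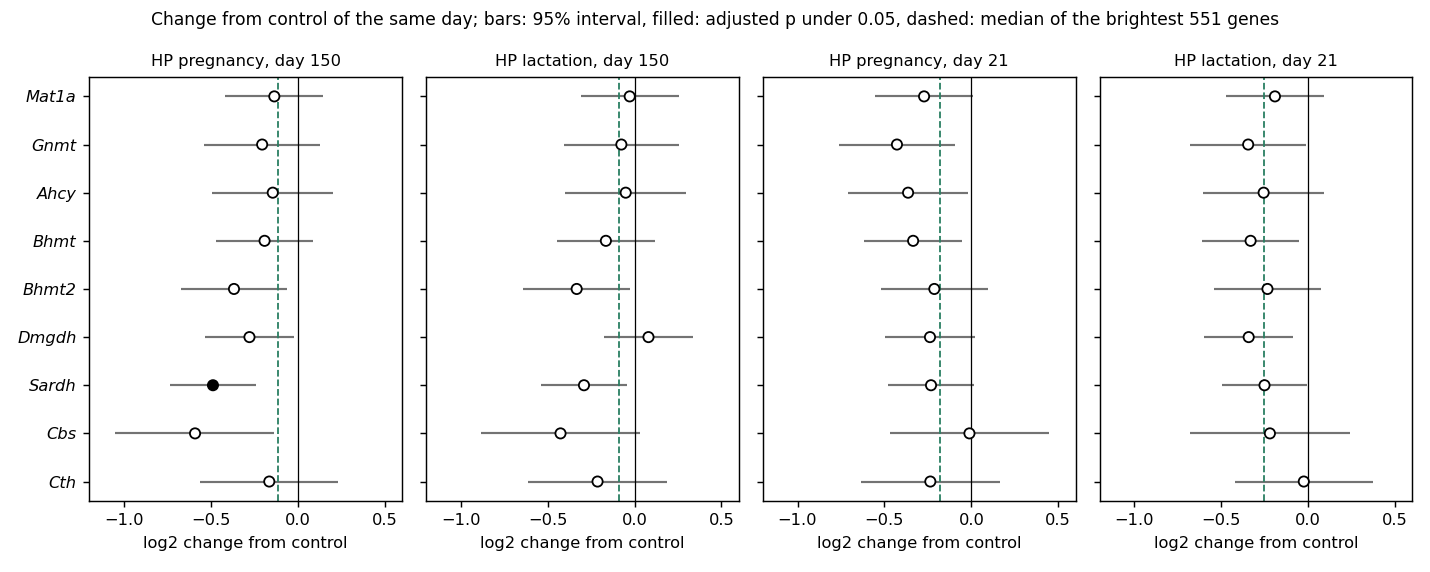
Log2 change from control of the same day for the 9 genes (tested probe sets), with 95% intervals from the limma fit over 18 arrays. Filled points passed an adjusted p of 0.05 and dashed lines are the median of the 551 brightest genes. Sardh after HP pregnancy at day 150 (-0.49) is the 1 filled point, and most other points lie near the dashed lines.

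Sardh, sarcosine dehydrogenase, turns sarcosine into glycine in mitochondria. At day 150 its tested probe set had signals of 2892.6, 2535.2 and 2974.7 in HP pregnancy, 3267.4, 3005.0 and 3347.8 in HP lactation, and 4417.8, 3637.5 and 3745.7 in control livers. Every array of both HP groups was below every control array. After HP pregnancy Sardh fell by 0.49 on the log2 scale (SE 0.12, 95% interval -0.73 to -0.24, limma adjusted p = 0.0386). In this comparison 2.63% of all genes were called (1.11% as lower in HP pregnancy), and 1 of the 9 members was. That background also rests on single arrays: 290 genes were called, but 2 without HP pregnancy array 2 and 9 without control array 1. After HP lactation the change was -0.29 (interval -0.54 to -0.045, adjusted p = 0.556), where 0.00908% of genes were called.

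The Sardh call was close to its threshold. It was kept in 10 of the 18 fits that each left out 1 array, with adjusted p between 0.0275 and 0.194. Leaving out any one of the 6 compared arrays ended it. Without HP pregnancy array 1, 2 or 3 the adjusted p was 0.057, 0.194 or 0.0661, and without control array 1, 2 or 3 it was 0.157, 0.0799 or 0.0771. Without HP pregnancy array 2 or 3 of day 21, which enter through the shared variance, it was 0.0509 or 0.0547. With the Gapdh 3'/5' ratio as a covariate the change was -0.405 (adjusted p = 0.213). A second Sardh probe set, listed with the same source sequence in the platform annotation, had signals of 3102.6, 2976.0 and 2950.4 in HP pregnancy, 4198.8, 3634.3 and 3650.2 in HP lactation, and 4290.2, 3379.5 and 3013.4 in control livers of day 150. By that set HP pregnancy and control overlapped, and the change was -0.23 (SE 0.14, adjusted p = 0.404).

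Dmgdh, dimethylglycine dehydrogenase, makes sarcosine one step before Sardh. Its signals at day 150 were 7821.7, 6257.3 and 6684.6 in HP pregnancy, 9436.0, 7923.3 and 9214.9 in HP lactation, and 8722.7, 8653.1 and 7725.8 in control livers. The change from control was -0.28 after HP pregnancy (interval -0.54 to -0.02, adjusted p = 0.213) and 0.08 after HP lactation (interval -0.18 to 0.34, adjusted p = 0.893). Among the tested probe sets no other had a positive change from control. All 3 HP pregnancy arrays were below the 3 HP lactation arrays, with a difference of -0.36 (interval -0.62 to -0.10, adjusted p = 0.141). The arrays of Sardh also lay apart in this way (-0.20, adjusted p = 0.402), as did those of 10.8% of all genes, and 0.717% were called.

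Bhmt2, a paralogue of Bhmt, uses S-methylmethionine to methylate homocysteine. The tested Bhmt2 probe set, whose name marks probes that can match more than one transcript, had signals of 11111.7, 8393.6 and 9068.0 in HP pregnancy, 10117.9, 8217.3 and 10908.4 in HP lactation, and 13143.9, 12250.4 and 11267.1 in control livers of day 150. Both HP groups lay below control, with changes of -0.37 after HP pregnancy (SE 0.15, adjusted p = 0.164) and -0.33 after HP lactation (SE 0.15, adjusted p = 0.594). Neither was called, and which transcript this set measures is uncertain.

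The second Bhmt2 set showed larger differences at day 150. Its signals were 2933.6, 2574.5 and 2897.7 in HP pregnancy, 2828.1, 2574.6 and 3532.0 in HP lactation, and 5019.5, 4158.3 and 3886.7 in control livers. All 6 arrays of HP dams were below the 3 control arrays. Among the 11018 tested genes all arrays were below control in 12.9% for HP pregnancy and in 6.28% for HP lactation, each counted alone. Such shares were not counted over the kept probe sets. In a fit of all 19349 kept probe sets this set fell by 0.63 after HP pregnancy (SE 0.14, adjusted p = 0.0373), in a comparison where 1.35% of sets were called. After HP lactation the change was of nearly the same size, -0.55 (SE 0.14, unadjusted p = 0.000661, adjusted p = 0.356), where 0.0103% of sets were called. The HP pregnancy call was kept in 10 of 18 fits without 1 array (adjusted p between 0.0291 and 0.177). By this set HP pregnancy minus HP lactation was -0.08 (SE 0.14, adjusted p = 0.821), where 0.548% of sets were called.

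Cbs, cystathionine beta-synthase, commits homocysteine to transsulfuration. Its tested set also has a name that marks probes able to match more than one transcript. At day 150 it had signals of 4880.5, 3441.3 and 4389.0 in HP pregnancy, 4817.2, 3094.6 and 6972.6 in HP lactation, and 6893.2, 6140.6 and 5956.3 in control livers. HP pregnancy lay wholly below control, and the HP lactation arrays spread more widely than any other group (SD 0.59 on the log2 scale). Cbs had the most negative change of the tested sets after HP pregnancy, -0.59 (SE 0.22, interval -1.05 to -0.13, adjusted p = 0.134), which was not called. The second Cbs set gave -0.77 (SE 0.22, adjusted p = 0.0751). Of the alternatives, only a fit of the compared arrays alone took Cbs past the threshold (adjusted p = 0.0421). It was called in 0 of 18 fits without 1 array (adjusted p between 0.0653 and 0.431). With the Gapdh 3'/5' ratio as a covariate its change was -0.48 (adjusted p = 0.422).

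By the tested sets, the 3 genes whose HP pregnancy arrays of day 150 all lay below control were Bhmt2, Cbs and Sardh. In that comparison 12.9% of all genes did so. After HP lactation the 3 genes were Bhmt2, Cth and Sardh, where 6.28% of all genes did so. Cth, cystathionine gamma-lyase, releases cysteine from cystathionine. It had signals of 22645.6, 27028.6 and 26588.1 in HP pregnancy, 25501.4, 22388.4 and 25744.6 in HP lactation, and 28697.7, 29919.9 and 26670.3 in control livers of day 150. Its changes were -0.16 (SE 0.19, adjusted p = 0.684) after HP pregnancy and -0.21 (SE 0.19, adjusted p = 0.815) after HP lactation.

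Mat1a, the methionine adenosyltransferase of adult liver, makes S-adenosylmethionine. Its signals were 17289.2, 23136.5 and 23728.0 in HP pregnancy, 27052.0, 20700.8 and 21146.8 in HP lactation, and 22219.2, 24914.5 and 22689.5 in control livers. Gnmt, glycine N-methyltransferase, spends surplus methyl groups on glycine. Its signals were 20863.1, 23046.5 and 27769.5 in HP pregnancy, 33934.5, 23037.2 and 22363.8 in HP lactation, and 25658.5, 28037.4 and 28438.0 in control livers. Groups overlapped for both genes, and the 95% intervals of the change from control ran from -0.54 to 0.15 after HP pregnancy and from -0.41 to 0.26 after HP lactation.

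Ahcy splits S-adenosylhomocysteine into homocysteine and adenosine. At day 150 it had signals of 24895.4, 29222.2 and 31478.3 in HP pregnancy, 39576.0, 27922.1 and 25138.5 in HP lactation, and 27507.9, 34153.8 and 32873.9 in control livers. Bhmt, betaine-homocysteine methyltransferase, had signals of 33618.4, 34826.8 and 40129.1 in HP pregnancy, 46465.2, 32321.3 and 33058.1 in HP lactation, and 37300.7, 43837.8 and 42771.8 in control livers. HP lactation array 4, which is also the array with Xist signal, was the highest of its group in Mat1a, Gnmt, Ahcy, Bhmt and Dmgdh, and its 99th percentile of signal was 19278.3 against 15938.0 and 16086.6 on the other arrays of its group. Without both arrays with Xist signal the members' median change in HP lactation at day 150 was -0.27, and none was called.

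At day 21 no member was called. For HP pregnancy the test called 0 of all 11018 genes (0%), while 1100 genes had an unadjusted p under 0.05, among them Gnmt, Bhmt and Ahcy, and limma without a trend called 1 gene. The changes of 8 members ranged from -0.43 (Gnmt, SE 0.16, adjusted p = 0.405) to -0.21 (Bhmt2), and that of Cbs was -0.01. Signals of Gnmt were 21795.5, 17916.2 and 21121.4 in HP pregnancy, 23500.1, 24069.3 and 17309.3 in HP lactation, and 25924.1, 29821.3 and 25965.1 in control livers. Both HP groups lay below control for Gnmt.

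Bhmt at day 21 had signals of 34811.6, 30427.4 and 35293.3 in HP pregnancy, 33066.0, 38626.6 and 29529.0 in HP lactation, and 43818.6, 41532.9 and 41264.1 in control livers. These groups too lay below control, with changes of -0.335 after HP pregnancy (SE 0.13, adjusted p = 0.428) and -0.33 after HP lactation (SE 0.13, adjusted p = 0.283). Ahcy had 26368.7, 21345.3 and 21936.8 in HP pregnancy, 28873.4, 27465.7 and 19509.1 in HP lactation, and 28997.5, 31614.4 and 28712.0 in control livers. For Mat1a the signals were 23691.8, 21776.4 and 23262.5 in HP pregnancy, 24892.6, 27386.3 and 20823.4 in HP lactation, and 29358.2, 28197.8 and 25517.1 in control livers. In Ahcy and Mat1a the HP pregnancy arrays were below control and the HP lactation arrays overlapped it.

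By the tested sets, HP pregnancy arrays of day 21 were all below control for Mat1a, Gnmt, Bhmt, Ahcy and Sardh. This held for 7.74% of all genes. HP lactation arrays of day 21 were all below control for Gnmt, Bhmt and Dmgdh, as in 8.71% of all genes. By the second Sardh set HP pregnancy (2925.4 to 3201.8) overlapped control (2949.0 to 3820.4). By the second Bhmt2 set HP pregnancy (4723.2 to 5806.0) lay below control (6141.9 to 6738.1). Dmgdh had 6372.2, 5445.2 and 5900.9 in HP pregnancy, 5113.2, 6061.5 and 5314.2 in HP lactation, and 8099.8, 6238.3 and 6643.4 in control livers of day 21. After HP lactation its change was -0.34 (SE 0.12, adjusted p = 0.233). In that comparison 0.172% of all genes were called.

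Hepatocyte markers gave no calls against control. All 8 had negative changes after HP pregnancy at day 21 (median -0.28), and 6 of 8 after HP lactation (median -0.31). Their summed signal at day 21 was between 179278.6 and 218604.9 in HP pregnancy and between 180022.4 and 231288.2 in HP lactation, against 236556.2 to 250263.7 in control arrays. At day 150 the sum was 207410.6 to 252861.5 in HP pregnancy and 218597.8 to 344901.6 in HP lactation, against 225580.4 to 279672.7 in control arrays, with 8 of 8 negative after HP pregnancy and 5 of 8 after HP lactation. All 6 Kupffer cell markers had positive changes after HP pregnancy at day 21 (median 0.40), with summed signals of 8444.6 to 11557.3 in HP pregnancy against 7520.9 to 8940.9 in control, and none was called. The part of these markers in the members' differences was not tested.

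The change from control was not shown to differ between the days for any member. Among the tested sets, the difference of the day 150 and day 21 changes was largest in size for Cbs after HP pregnancy (-0.58, SE 0.31, adjusted p = 0.999; -0.62 by the second Cbs set) and for Dmgdh after HP lactation (0.42, SE 0.17, unadjusted p = 0.0254, adjusted p = 0.929), and over all genes 0.0182% were called in either comparison. HP pregnancy and HP lactation were also not told apart for any member: 0 of 9 were called at day 150 and 0 of 9 at day 21, where 1.28% of all genes were called. At day 21 the intervals of these 9 differences lay between -0.61 and 0.67. Tests of any difference among the 3 diets called no member at day 150 (Sardh adjusted p = 0.0724, 1.22% of genes called) and none at day 21 (0.663% called).

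More members were called for age than for diet, as was so over all genes. The mean over the diets is also more precise, with a median standard error of 0.109 against 0.189 for a difference of 2 groups. As a mean over the 3 diets, Dmgdh and Cth were higher and Sardh was lower at day 150 than at day 21, that is 3 of 9 genes, where 47.6% of all genes were called (25.3% higher, 22.3% lower). The members' median was 0.07 beside 0.02 over all genes. The Gapdh 3'/5' ratio was higher at day 150 in all diets, as given above, so its part and that of age cannot be told apart. Summed Kupffer cell markers were 9574.0 to 15684.9 at day 150 against 6310.7 to 11557.3 at day 21. The single markers did not all go this way: as a mean over the diets 3 of 6 were called higher and 1 lower. Summed stellate cell markers were 8268.4 to 14349.1 at day 150 against 14858.7 to 21772.8 at day 21, with 3 of 5 called lower and 0 higher. Of the 8 hepatocyte markers 3 were called higher and 0 lower (median 0.22). Pericentral hepatocyte markers had 1 of 7 called higher and 3 lower, and periportal ones 1 of 5 higher and 0 lower. Alas2 was higher at day 150 (1.32 on the log2 scale, signals of 252.4 to 1205.7 against 186.4 to 348.2 at day 21), and so was Ighm (1.53, signals of 232.5 to 530.8 against 19.0 to 214.7). The part of these cell types was not tested.

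Dmgdh rose by 0.39 with age (SE 0.07, adjusted p = 0.000177). Within HP lactation its signals of 7923.3 to 9436.0 at day 150 stood above 5113.2 to 6061.5 at day 21, a change of 0.69 (SE 0.12, adjusted p = 0.000543) in a comparison where 25.7% of genes were called and 20% had all arrays above. The change was 0.225 within HP pregnancy (SE 0.12, adjusted p = 0.199) and 0.27 within control (SE 0.12, adjusted p = 0.147), with overlapping days in both.

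Sardh, the next enzyme of the same branch, went the other way by its tested probe set. It fell by 0.39 on average (SE 0.07, adjusted p = 0.000122), by 0.55 within HP pregnancy (adjusted p = 0.00264) where 23.6% of genes were called, and by 0.33 within HP lactation (adjusted p = 0.0454), a call kept in 6 of 18 fits without 1 array. Within control the change was -0.29 (adjusted p = 0.0952), and 17.8% of genes were called there. In each diet the 3 arrays of day 150 were below the 3 arrays of day 21, as in 20.7% of genes for HP pregnancy, 17.2% for HP lactation and 16.6% for control. The day 21 signals were 3701.8, 4462.0 and 4121.7 in HP pregnancy, 3753.5, 4500.1 and 3867.7 in HP lactation, and 4484.0, 5285.7 and 4649.6 in control livers. The second Sardh set did not share this: its mean change was 0.02 (SE 0.08, adjusted p = 0.847). 

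**Figure D3:**
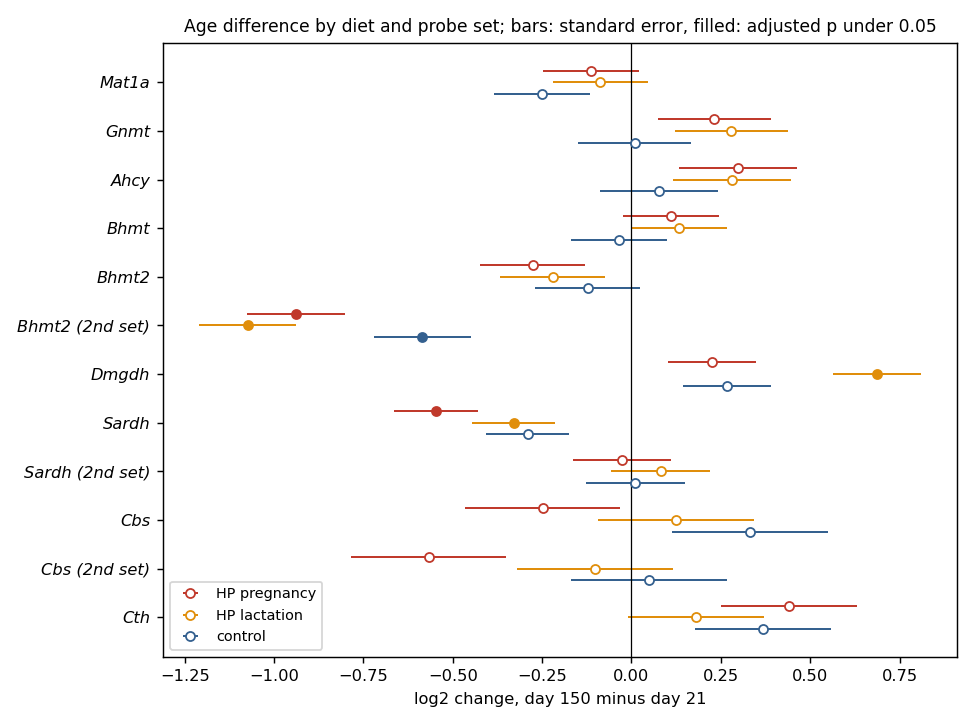
Log2 change of day 150 minus day 21 for the 12 probe sets of the 9 genes, by diet. Bars are standard errors, and filled points passed an adjusted p of 0.05, over the 11018 tested genes for tested sets and over the 19349 kept probe sets for second sets. The second Bhmt2 set (-0.94 in HP pregnancy, -1.07 in HP lactation, -0.585 in control) stands farthest from 0, and both Sardh sets part from each other.

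Bhmt2 differed most between its probe sets. By the tested set the mean change with age was -0.21 (SE 0.085, adjusted p = 0.0521). The second set had signals of 2933.6, 2574.5 and 2897.7 at day 150 against 4723.2, 5806.0 and 5628.9 at day 21 in HP pregnancy, and of 2828.1, 2574.6 and 3532.0 at day 150 against 5440.6, 6870.1 and 6424.0 at day 21 in HP lactation. In control livers it had 5019.5, 4158.3 and 3886.7 at day 150 against 6738.1, 6610.4 and 6141.9 at day 21. No array of day 150 reached the lowest array of day 21 in the same diet. Among the 11018 tested genes this was so in 20.7% for HP pregnancy, 17.2% for HP lactation and 16.6% for control, each counted alone. This set fell by 0.94 in HP pregnancy (SE 0.14, adjusted p = 9.92e-05), by 1.07 in HP lactation (SE 0.14, adjusted p = 1.91e-05) and by 0.585 in control (SE 0.14, adjusted p = 0.00728). Of all probe sets 21.6% were called in HP pregnancy, 23.2% in HP lactation and 14.9% in control. Each of the 3 calls held in all 18 fits without 1 array, and as a mean over the diets the set fell by 0.87 (SE 0.08, adjusted p = 7.7e-08, 44.8% of sets called). The age change minus that of control was -0.355 in HP pregnancy (SE 0.19, adjusted p = 0.999, 0.00517% of sets called) and -0.49 in HP lactation (SE 0.19, adjusted p = 0.942, 0.0155% of sets called), so these falls were not shown to differ.

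Bhmt2 by its second set and Dmgdh, whose starts are 133 bases apart, moved in opposite directions with age. Correlations were computed for the tested Bhmt2 set only, so they do not describe the second set. Over the 18 arrays the tested Bhmt2 set and Dmgdh had a Pearson r of 0.076, and after the mean of each day was subtracted r was 0.637. The arrays share their overall brightness and their pools, so these values are a description. Bhmt, the third gene of the cluster, had a mean change with age of 0.07 (SE 0.08, interval -0.09 to 0.23, adjusted p = 0.485), which was -0.12 after quantile normalization (adjusted p = 0.009).

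**Figure D4:**
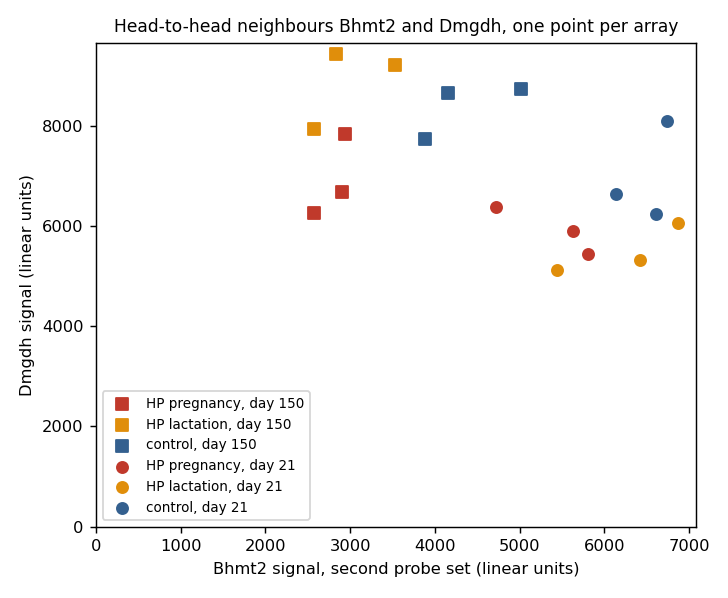
Dmgdh signal against the signal of the second Bhmt2 probe set (both linear, axes from 0), 1 point per array. Squares are day 150 and circles day 21, coloured by diet. Day 150 arrays lie mostly to the left (Bhmt2 2574.5 to 5019.5) and mostly higher (Dmgdh 6257.3 to 9436.0) than day 21 arrays (Bhmt2 4723.2 to 6870.1, Dmgdh 5113.2 to 8099.8).

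Cth rose by 0.33 with age as a mean over the diets (SE 0.11, adjusted p = 0.019), with 0.44 in HP pregnancy, 0.18 in HP lactation and 0.37 in control, none of which was called alone. After quantile normalization the mean change was 0.26 (adjusted p = 0.052). Without both arrays with Xist signal it was 0.30 (adjusted p = 0.0563), so the call was lost there too. In HP pregnancy every Cth array of day 150 was above those of day 21, as in 23.2% of genes. Its day 21 signals were 21674.4, 17862.2 and 16830.2 in HP pregnancy, 22343.1, 30662.6 and 14755.0 in HP lactation, and 19220.6, 20494.9 and 27012.0 in control livers. HP lactation array 3 of day 21 was the lowest of its group in 6 of 9 members, and its 99th percentile of signal, 14732.7, was the lowest of all arrays. Ahcy (0.22, adjusted p = 0.0675), Gnmt (0.17, adjusted p = 0.128) and Mat1a (-0.15, adjusted p = 0.121) were not called, although Mat1a was called lower after quantile normalization (-0.24, adjusted p = 0.000113).

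Cbs showed no called age change (0.07, SE 0.13, interval -0.20 to 0.33, adjusted p = 0.684). Its day 21 signals were 4821.6, 5127.0 and 5007.8 in HP pregnancy, 4348.8, 5160.2 and 3572.5 in HP lactation, and 6253.9, 4462.5 and 4540.5 in control livers. The age difference was -0.25 within HP pregnancy, 0.125 within HP lactation and 0.33 within control, with adjusted p of 0.445, 0.715 and 0.323. The second Cbs set gave -0.57 (adjusted p = 0.0698), -0.10 (adjusted p = 0.778) and 0.05 (adjusted p = 0.912) in the same order of diets.

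Mat1a, Gnmt, Ahcy and Bhmt varied together most closely across arrays. After the mean of each day was subtracted, Pearson r of log2 signal over 18 arrays was 0.851 to 0.946 among Mat1a, Gnmt, Ahcy and Bhmt, and 0.53 to 0.785 among Dmgdh, Sardh, Cbs and Bhmt2. Between these sets of 4 it was 0.061 (Ahcy and Bhmt2) to 0.54 (Bhmt and Dmgdh), so the sets were not sharply separate. Cth had 0.50 to 0.565 with the first set and 0.161 to 0.303 with the second. All pairs were positive. These values include diet differences, and the arrays share scaling, pool and brightness. Many genes outside the pathway were as close: the closest to Gnmt were Fau (0.973), Atp5g3 (0.969) and Gm12338 (0.964), and Ahcy, its nearest member, ranked 10th of all genes.

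**Figure D5:**
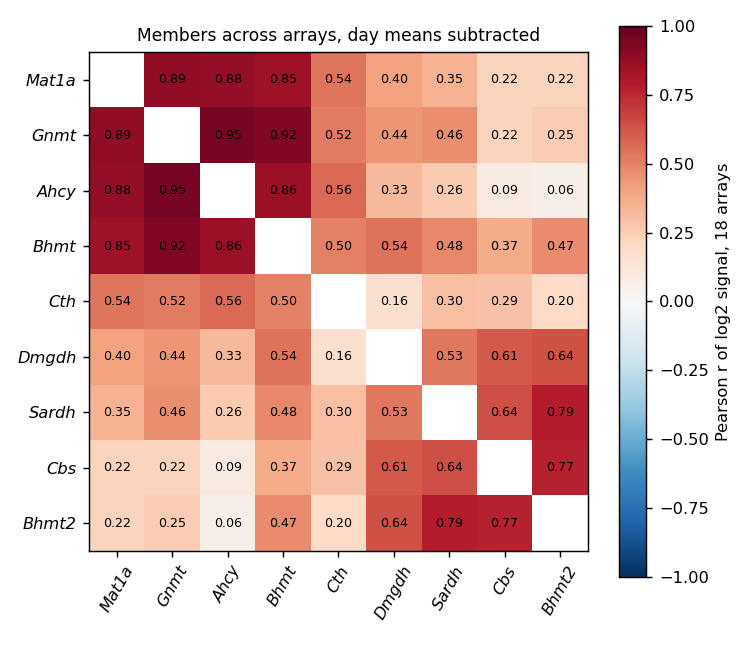
Pearson r of log2 signal between the 9 genes over 18 arrays after subtraction of each day's mean (colour and printed values, tested probe sets). Mat1a, Gnmt, Ahcy and Bhmt form a block of 0.85 to 0.95, Bhmt2, Cbs, Sardh and Dmgdh have 0.53 to 0.79 among themselves, and pairs between them reach 0.54.

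For Mat1a the closest genes by the same measure were Arg1 (0.908), Plg (0.905) and Hpd (0.901), all strongly expressed in hepatocytes, and for Bhmt they were Rps29 (0.974), Sod1 (0.969) and Rps14 (0.965). Ahcy was closest to Hpd (0.947) and Gnmt (0.946). Sardh was closest to Clybl (0.928), Pdf (0.927) and Ndufa9 (0.925), and Cbs to Coq8a (0.908), Camk1d (0.876) and Gldc (0.843). Bhmt2 was closest to Cfl1 (0.866) and Magix (0.863), Dmgdh to Rpn1 (0.875) and Acsm1 (0.856), and Cth to Rbl2 (0.809) and Pole4 (0.807). Of these neighbours Gldc, the glycine decarboxylase of the glycine cleavage system, belongs to the surrounding pathway lists.

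Among 58 other genes of the methionine, betaine, folate, cysteine and polyamine pathways, 47 were tested. After HP pregnancy at day 150, 3 were lower and 1 was higher, where 1.11% and 1.52% of all genes were so called (median -0.105 over the 47 genes, 0.003 over all genes). In the other 3 comparisons with control none of the 47 was called. Of the 12 tested genes of the methionine cycle and of betaine and choline, Mtrr was higher and Aldh7a1 lower. Of the 11 of cysteine, taurine and glutathione, Ethe1 and Tst were lower. The cysteine list was negative in 10 of 11 genes (median -0.30), where 49.6% of all genes and 75.3% of the 551 brightest were negative. None of the 16 folate and glycine cleavage genes or of the 8 salvage and polyamine genes was called.

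Mtrr, methionine synthase reductase, keeps the folate-dependent methionine synthase active. Its signals at day 150 were 626.2, 728.6 and 653.9 in HP pregnancy, 290.7, 591.5 and 461.8 in HP lactation, and 423.8, 327.5 and 330.3 in control livers, and it rose by 0.90 after HP pregnancy (SE 0.22, adjusted p = 0.0409). Aldh7a1, which can oxidise betaine aldehyde to betaine, had 7563.3, 7031.1 and 8182.7 in HP pregnancy, 10433.9, 7643.9 and 9500.7 in HP lactation, and 11095.8, 10289.6 and 10786.8 in control livers. It fell by 0.50 after HP pregnancy (SE 0.12, adjusted p = 0.0409), and its other probe sets gave -0.51 (adjusted p = 0.715) and -0.68 (adjusted p = 0.249), neither called. HP pregnancy lay wholly above control for Mtrr, as in 15.1% of all genes, and wholly below it for Aldh7a1, as in 12.9%. These calls were kept in 10 (Mtrr) and 9 (Aldh7a1) of 18 fits without 1 array.

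Ethe1, a mitochondrial enzyme of sulfide oxidation, had signals of 3301.4, 2292.6 and 3174.7 in HP pregnancy, 3645.6, 2829.2 and 4686.7 in HP lactation, and 5058.2, 4568.4 and 4879.7 in control livers of day 150. It fell by 0.74 after HP pregnancy (SE 0.18, adjusted p = 0.0381). Tst, a thiosulfate sulfurtransferase that also handles sulfide products, had 3449.8, 3596.0 and 3838.0 in HP pregnancy, 5118.7, 4454.6 and 4695.5 in HP lactation, and 4752.6, 5021.3 and 4919.0 in control livers. It fell by 0.43 after HP pregnancy (SE 0.11, adjusted p = 0.0456). The 3 HP pregnancy arrays were below control for both, as in 12.9% of all genes. The calls were kept in 12 (Ethe1) and 6 (Tst) of 18 fits without 1 array, and with the Gapdh 3'/5' ratio as a covariate the adjusted p was 0.117 (Mtrr), 0.216 (Aldh7a1), 0.21 (Ethe1) and 0.152 (Tst).

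With age, 11 of the 47 genes were higher and 19 lower at day 150 (median -0.13), beside 25.3% higher and 22.3% lower of all genes (median 0.02). Ahcyl2, a relative of Ahcy, rose most clearly: its signals of 777.8 to 1341.1 at day 150 stood above 308.8 to 496.8 at day 21, a mean change of 1.28 (SE 0.11, adjusted p = 4.6e-08). Other Ahcyl2 probe sets gave 0.58 (adjusted p = 0.0119) and 0.565 (adjusted p = 0.0523). Nnmt, which methylates nicotinamide, had the largest change of the 47 genes, 3.13 (SE 0.64, adjusted p = 0.000569), but its signals ran from 488.2 to 8822.5 at day 150 and from 27.6 to 3280.0 at day 21, so single arrays overlapped. Gamt, a methyltransferase that makes creatine, fell by 0.87 (SE 0.11, adjusted p = 3.85e-06), and Pemt, which makes phosphatidylcholine, fell by 0.51 (SE 0.07, adjusted p = 1.59e-05). Pipox, which also oxidises sarcosine, rose by 0.42 (SE 0.08, adjusted p = 0.000215), while Sardh fell by its tested set.

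In the folate list 4 of 16 genes were higher, the share of all genes being 25.3%, and 7 were lower, where 22.3% of all genes were. Slc25a32, a mitochondrial folate carrier, fell by 1.18 (SE 0.165, adjusted p = 1.27e-05) and its other probe sets gave -0.68 and -0.58. Mthfd1 fell by 0.34 (SE 0.07, adjusted p = 0.00051), although its other sets disagreed, with -0.53 (adjusted p = 7.23e-05) and 0.17 (adjusted p = 0.279), while Ggh, which trims folate polyglutamates, rose by 0.74 (SE 0.09, adjusted p = 2.57e-06). In the cysteine list 1 of 11 was higher and 5 were lower. Gss, glutathione synthetase, fell by 0.63 (SE 0.08, adjusted p = 5.04e-06), and a second Gss probe set gave -0.73. In the salvage and polyamine list 1 of 8 was higher and 4 were lower. Mri1, of methionine salvage, fell by 0.87 (SE 0.15, adjusted p = 0.000104).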

How the data were processed

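The authors deposited linear signal intensities, and the submitters' processing notes name MAS5 and GCOS 1.4. With 2% cut at each end, every array averaged 500, and no further scaling was applied. The array has 45101 probe sets. A single gene symbol was given for 34945 and several for 932, while 9160 had no symbol and 64 were control features. The filter dropped probe sets whose mean log2 signal was under 5.846, the median (a signal of 57.52). The brightest kept set of each gene was tested, which left 11018 genes from 19349 kept probe sets of 1 symbol.

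Group means were fitted to log2 signal over all 18 arrays in limma 3.58.1 (R 4.3.3) with lmFit, contrasts.fit and eBayes with trend, with 12 residual and 6.47 prior degrees of freedom. Tests were two-sided with Benjamini-Hochberg adjustment over all genes in each comparison. The number of arrays limits the precision: the median standard error of a difference of 2 groups was 0.189. The code was tested on simulated data.

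The members and lists were chosen with earlier results of these data known. Members were always named, pathway genes where called, and up to 3 genes per member by Pearson r. Second probe sets were read from a fit of every kept probe set. Promoter sequences are from RefSeq (GRCm38.p6). Alternatives were other filters, scalings and offsets, eBayes without trend, array weights, the compared arrays alone, a replicate block, each array left out, and, chosen after seeing the data, the Gapdh 3'/5' ratio as a covariate. Arrays of equal replicate number in different groups did not deviate together (r -0.113 to 0.103), so numbers were not used as pairs. Figures were drawn with matplotlib 3.10.9.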

Additional observations from a re-analysis of the deposited data

How the results depend on the processing

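Of the log2 changes of single genes recomputed under other settings, 1220 kept their sign and their side of the threshold, 14 gained and 40 lost a call, and 17 changed sign. With 1 array left out, 1887 kept both, 16 gained and 78 lost a call, and 17 changed sign. The count of called members after HP pregnancy at day 150 (1) was 0 without the filter, with equal 75th percentiles, without trend, with the replicate block and with the Gapdh 3'/5' covariate (chosen after seeing the data), 2 with every kept probe set or the compared arrays alone, and 0 to 1 with 1 array left out. The replicate block gave Sardh a change of -0.488 (adjusted p = 0.0632); HP lactation arrays of day 150 carry other numbers and could not be blocked, and pairing is not given by the labels. Over all genes this comparison had 290 calls, against 5 with the Gapdh covariate, 72 without trend and 1053 with array weights, and 2 (without HP pregnancy array 2 of day 150) to 433 (without control array 2 of day 21) with 1 array left out. It was 9 without control array 1, 35 without control array 2 and 47 without control array 3 or HP pregnancy array 3 of day 150. The count of called pathway genes (4) was 0 without trend and with the Gapdh covariate, 1 without the filter and with equal 75th percentiles, and 7 with array weights. Age calls within control (0) were 1 with quantile normalization, every probe set and a threshold of 0.10. Within HP lactation (2) they were 1 without the filter, with equal 75th percentiles, without trend, with the compared arrays alone and without both arrays with Xist signal, and 1 to 2 with 1 array left out. Within HP pregnancy (1) they were 2 with quantile normalization, every probe set and the compared arrays alone, 4 with array weights, and 1 to 2 with 1 array left out. As a mean over diets (3) they were 5 with quantile normalization, array weights and a threshold of 0.10, and 3 to 5 with 1 array left out. The test among 3 diets at day 150 (0) called 1 with array weights and at 0.10.

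Signs changed with quantile normalization for Ahcy after HP lactation at day 150 (0.021) and day 21 (0.026), Mat1a after HP lactation at day 150 (0.052) and day 21 (0.086), Cbs after HP pregnancy at day 21 (0.022), Cth after HP lactation at day 21 (0.204) and Bhmt with age (-0.120, adjusted p = 0.009). Array weights gave -0.012 for Cbs with age in HP lactation, 0.006 for Cbs after HP pregnancy and 0.034 for Cth after HP lactation at day 21. Second probe sets gave -0.207 for Cbs with age and -0.102 with age in HP lactation, and for Sardh 0.022 with age, 0.082 with age in HP lactation, 0.011 with age in control, 0.117 after HP lactation at day 150 and 0.046 at day 21. With 1 array left out, changes after HP lactation at day 150 ran from -0.244 to 0.083 in Ahcy, -0.269 to 0.032 in Gnmt and -0.152 to 0.041 in Mat1a, that of Mat1a after HP pregnancy at day 150 from -0.217 to 0.011, that of Cbs after HP pregnancy at day 21 from -0.097 to 0.147, that of Cth after HP lactation at day 21 from -0.277 to 0.251, that of Cbs with age from -0.026 to 0.169, and with age in HP lactation from -0.159 to 0.427 in Cbs and -0.096 to 0.432 in Cth. The causes were not tested. Equal 75th percentiles moved the median of all genes to -0.121 after HP lactation at day 21. With 3 pooled arrays per group, small changes of bright probe sets are limited by the spread between arrays.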
